A study of Mus musculus with 75 samples.

Results

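The genes of meiotic double-strand break formation described here were Spo11, Prdm9, Rec114 (listed in the table under its older name 2410076I21Rik), Mei4, Iho1 (listed as Ccdc36) and Mei1. They were chosen by name from what is known of the process, with earlier results of these data already known. Of the 7 names, 6 were matched among the 26218 genes of the expression table. Ankrd31, the seventh, was not analysed here. The data were messenger RNA levels in 75 mouse libraries of 37 groups, in RPM (reads assigned to a gene, scaled to a common library total), from germ cells sorted from embryos and from primordial germ cell-like cells (PGCLCs) made from embryonic stem cells. The study asked, by its title, how bone morphogenetic protein and retinoic acid set the female germ cell fate.

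Germ cells that enter meiosis cut their own chromosomes, and repair of these breaks from the homologous chromosome makes crossovers. SPO11, with its partner TOPOVIBL, is the enzyme that cuts. PRDM9 is a histone methyltransferase whose zinc fingers choose the sites. REC114, MEI4, IHO1 and MEI1 are accessory proteins that assemble on the chromosome axis and are required for SPO11 to act. In mice, female germ cells enter meiosis in the fetal ovary, whereas male germ cells enter it only after birth, and STRA8, a transcription factor, is needed to start it.

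The embryonic germ cells were of strain ICR:C57BL/6=1:1, with 2 libraries in each of 11 groups: E9.5, E10.5 and E11.5, for which no sex is given, and each sex on each day from E12.5 to E15.5. Cells through E13.5 carried Dppa3-EGFP Tg/0 and were sorted as GFP-positive. Those of E14.5 and E15.5 carried Ddx4-RFP Tg/0 and were sorted as RFP-positive, so reporter and stage cannot be told apart between E13.5 and E14.5. All PGCLCs carried Prdm1-mVenus Tg/0 and Dppa3-ECFP Tg/0 and were grown on m220 feeder cells after sorting. In the 129S1:C57BL/6=1:1 line there were 2 libraries each at day 0, at day 3 in the condition CT, and at days 5, 7 and 9 in the conditions CT, RA and RB. The labels do not spell these codes out, and they state that the factors of the female fate were given from day 3. One more library of that line, named 0R3B, was from day 9. The DBA/2:C57BL/6=1:1 cells were wild type (2 libraries per day) or Stra8-/- (4 libraries per day, of the knockout lines SK1, counted in 2 libraries, SK2 and SK3), in CT at day 3 and RB at days 5, 7 and 9. Another 6 single libraries were of C57BL/6 cells that also carried Gtrosa26tm1Sor/0. They were 1 at day 0, c0CT and c0RB at day 2, 1 at day 7, and c7CT and c7RB at day 9. Since c0RB was of day 2, a start at day 3 does not hold for all of them. Their titles do not spell out when RB was given. Nothing in the labels says whether libraries of a group came from separate animals or cultures, so p-values measure the spread between libraries, which may be technical.

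Depth was estimated from the RPM of a single read, which put 3 reads, the smallest amount taken as measured, at 0.192 to 2.777 RPM in a library. Values below that amount are printed as they stand and are not taken as measured levels. Intervals and floors cover counting error only. Each library was read at transcript 3′ ends, so levels of different genes are not set against each other here. All 7 germ cell markers read were above 0 in every group. In bulk samples, fewer cells expressing a gene and less RNA per cell cannot be told apart. Prdm9 needs care at low levels, since only 40 of its 65 values above 0 were whole numbers of reads (61.54%), against 97.33% to 100% for the other 5 genes.

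The 6 genes lie on 4 chromosomes of GRCm38: Spo11 (Entrez 26972) at chr2:172977379-172993576, Rec114 (73673) at chr9:58652856-58822706, Mei4 (75033) at chr9:81863670-82206007, Iho1 (434438) at chr9:108403492-108431841, Mei1 (74369) at chr15:82070074-82126817 and Prdm9 (213389) at chr17:15543072-15564374. Spo11, Mei4 and Mei1 are on the plus strand and the other 3 on the minus strand. Rec114 is the only one of the 6 with an exon overlapping an exon of another annotated gene. That gene, Nptn, which encodes the cell adhesion molecule neuroplastin, lies on the opposite strand and has an exon within the last 2000 bases of Rec114. Whether strand was used in counting is not given in the sources used here, so reads of Rec114 and Nptn may not have been told apart, and levels of Nptn are given beside the Rec114 differences described below.

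Promoters, 250 bases before to 50 after a transcript start, were found for 5 of the 6 genes in RefSeq (GRCm38.p6), with 2 starts for Prdm9. They were searched on both strands for 4 motifs: CNCCTCAG, the sequence bound by STRA8 with MEIOSIN, CACGTG, an E-box, GCGGGAA, bound by E2F factors, and the retinoic acid receptor repeat DR5. Shown here are the promoters of Prdm9 and Rec114, the members with the largest and the smallest difference in the knockout of Stra8 at day 9 below, and of Iho1 and Mei1, which were lower there too. The starts listed for Rec114 and Mei1 lie inside the spans given above. Capitals mark matches to any of the first 3 motifs, and each sequence runs 5′ to 3′ on the strand of its gene.
Prdm9, chr17:15564305-15564604, minus strand: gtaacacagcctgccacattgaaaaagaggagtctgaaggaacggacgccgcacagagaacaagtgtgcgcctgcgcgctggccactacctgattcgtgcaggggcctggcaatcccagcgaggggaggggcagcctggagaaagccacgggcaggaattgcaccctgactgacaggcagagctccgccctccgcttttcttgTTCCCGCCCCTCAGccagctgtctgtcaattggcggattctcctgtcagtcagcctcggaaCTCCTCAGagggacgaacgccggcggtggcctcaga
Rec114, chr9:58741510-58741809, minus strand: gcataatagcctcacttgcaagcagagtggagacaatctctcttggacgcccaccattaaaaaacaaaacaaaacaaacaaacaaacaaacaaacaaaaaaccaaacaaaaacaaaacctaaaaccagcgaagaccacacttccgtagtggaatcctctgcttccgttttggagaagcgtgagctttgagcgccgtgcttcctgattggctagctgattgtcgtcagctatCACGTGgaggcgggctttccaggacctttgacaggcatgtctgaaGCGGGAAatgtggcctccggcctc
Iho1, chr9:108431777-108432076, minus strand: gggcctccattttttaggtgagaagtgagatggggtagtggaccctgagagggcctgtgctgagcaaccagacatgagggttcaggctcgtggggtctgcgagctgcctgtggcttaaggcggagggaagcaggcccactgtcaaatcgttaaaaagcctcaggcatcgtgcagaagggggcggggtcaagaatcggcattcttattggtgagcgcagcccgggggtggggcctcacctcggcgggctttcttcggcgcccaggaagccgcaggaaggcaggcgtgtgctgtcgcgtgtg
Mei1, chr15:82082226-82082525, plus strand: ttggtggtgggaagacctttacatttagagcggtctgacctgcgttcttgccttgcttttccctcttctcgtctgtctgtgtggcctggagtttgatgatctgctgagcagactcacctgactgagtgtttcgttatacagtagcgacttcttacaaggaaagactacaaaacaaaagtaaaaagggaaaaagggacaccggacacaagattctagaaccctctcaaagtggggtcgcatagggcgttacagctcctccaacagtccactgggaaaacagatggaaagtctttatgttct
The upstream Prdm9 promoter held 2 matches to the STRA8 motif, CCCCTCAG starting 41 bases before the start and CTCCTCAG starting at base 15 after it. An E2F match on the other strand, TTCCCGC, overlapped the first of these by its last base. The Rec114 promoter held an E-box starting 19 bases before the start and an E2F match starting at base 27 after it. The promoters of Iho1, Mei1 and Mei4 and the downstream Prdm9 promoter held none of the 4 motifs. Of all 32851 promoters, 7.94% held the STRA8 motif, 7.15% the E-box, 4.6% the E2F motif and 0.00913% DR5. No match says only that these letters are not in this window.

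In the embryo, 5 of the 6 genes were higher in female than in male germ cells at E14.5, and Rec114 was the exception. Of all 12567 genes tested, 22.4% were called higher in females at that stage and 25.9% lower, where a call is an adjusted p below 0.05 with at least a 2-fold change on the log2(RPM + 1) scale. That scale understates changes of low genes. Mei1 and Prdm9 reached the filter of 5 RPM in 2 libraries only through female E14.5 and E15.5 cells, so counts over the members describe them and support nothing further. The median log2 fold change of the 6 was 3.65, and that of all genes was -0.08.

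Spo11, the catalytic gene, measured 173 and 108 RPM in E14.5 females and 19.9 and 22.3 RPM in E14.5 males. Both female libraries lay above both male ones, with a log2 fold change of 2.64 ± 0.32 (SE) and an adjusted p of 1.46e-07 in limma. Unlike most of the others, Spo11 was already present before the sexes diverged. It measured 9.45 and 6.42 RPM at E11.5, and 14.9 and 10.3 RPM in E12.5 males. In males it reached 32.6 and 21.9 RPM at E15.5, a rise of 1.66 ± 0.32 over E11.5 (adjusted p = 8.93e-05). In females it reached 269 and 187 RPM at E15.5, which was 8.37 times the male mean.

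Prdm9, which selects break sites, measured 1.73 and 2.24 RPM in females at E13.5 and 95.4 and 89.3 RPM at E14.5. This step within a day was 4.97 ± 0.42 on the log2 scale (adjusted p = 1.1e-09), and the sort reporter changed at the same step. Male cells stayed between 0 and 2.29 RPM from E12.5 to E15.5, so the sexes did not overlap at E14.5 (log2 fold change 5.22 ± 0.42, adjusted p = 1.97e-10). At E15.5 the female values were 120 and 102 RPM and the male values 0.741 and 0.729 RPM. The E15.5 change from E11.5 in males was 0.07, with a 95% interval from -0.81 to 0.94.

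Among the accessory genes at E14.5, Mei1 had the widest fitted contrast between the sexes. It was at 0 in both female libraries at E12.5, at 0.865 and 1.92 RPM at E13.5, and at 120 and 136 RPM at E14.5, against 0.603 and 0.286 RPM in E14.5 males. The female libraries stood far above the male ones (6.49 ± 0.42, adjusted p = 4.18e-12). Both male values were under the floor of 3 reads in their library (0.904 and 0.857 RPM). Iho1, whose protein binds HORMAD1 on the unsynapsed axis, measured 122 and 94.8 RPM in E14.5 females and 6.03 and 5.14 RPM in males (4.04 ± 0.46, adjusted p = 5.59e-08). In females it had been at 6.34 and 4.17 RPM at E13.5, above the 0.635 and 0.656 RPM of males, so the sexes already differed there (1.90 ± 0.46, adjusted p = 0.00288). These E13.5 male values were also under their floors of 3 reads (0.952 and 0.985 RPM).

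Mei4 was highest in females at E14.5 and lowest in males at E15.5. The female values were 9.39 and 9.03 RPM at E12.5, 12.7 and 13.1 at E13.5, 40.3 and 47.1 at E14.5, and 24 and 23.4 at E15.5. The step down from E14.5 to E15.5 did not pass the test (-0.85 ± 0.36, adjusted p = 0.142). In males it went from 10.4 and 16.8 RPM at E12.5 to 1.85 and 3.97 RPM at E15.5. The male change from E11.5 to E15.5 was -0.99 ± 0.36 (adjusted p = 0.0189), just short of the 2-fold threshold, and in that comparison, where 18.5% of all genes were called lower, no member was called lower but 1 was with a pseudocount of 0.1 or with median or quantile scaling. The female excess at E14.5 was 3.26 ± 0.36 (adjusted p = 3.37e-08).

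Rec114, whose protein forms a complex with MEI4, was present early and in both sexes. It measured 6.08 and 5.32 RPM at E9.5, 30.4 and 24.7 RPM at E11.5, and 60.3 in each of the E13.5 female libraries. At E13.5 the female libraries were above the male ones at 27.9 and 25.6 RPM (1.14 ± 0.30, adjusted p = 0.00582), and Nptn measured 40.7 and 40.4 RPM in females and 32.1 and 31.5 RPM in males. At E14.5 the males measured 28.9 and 64 RPM and the females 68.3 and 71.2 RPM, and the difference of 0.68 had a 95% interval from 0.05 to 1.31 (adjusted p = 0.0511). At E14.5 Nptn measured 36.8 and 34.5 RPM in E14.5 females and 23.5 and 31.4 RPM in males. Between E12.5 and E15.5 the female-to-male difference of Rec114 changed by 0.11 (95% interval -0.78 to 1.00), whereas that of the other 5 genes grew by 3.197 to 6.44 (adjusted p from 4e-09 to 1.12e-05), and 22.2% of all genes were called in that direction.

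**Figure D1:**
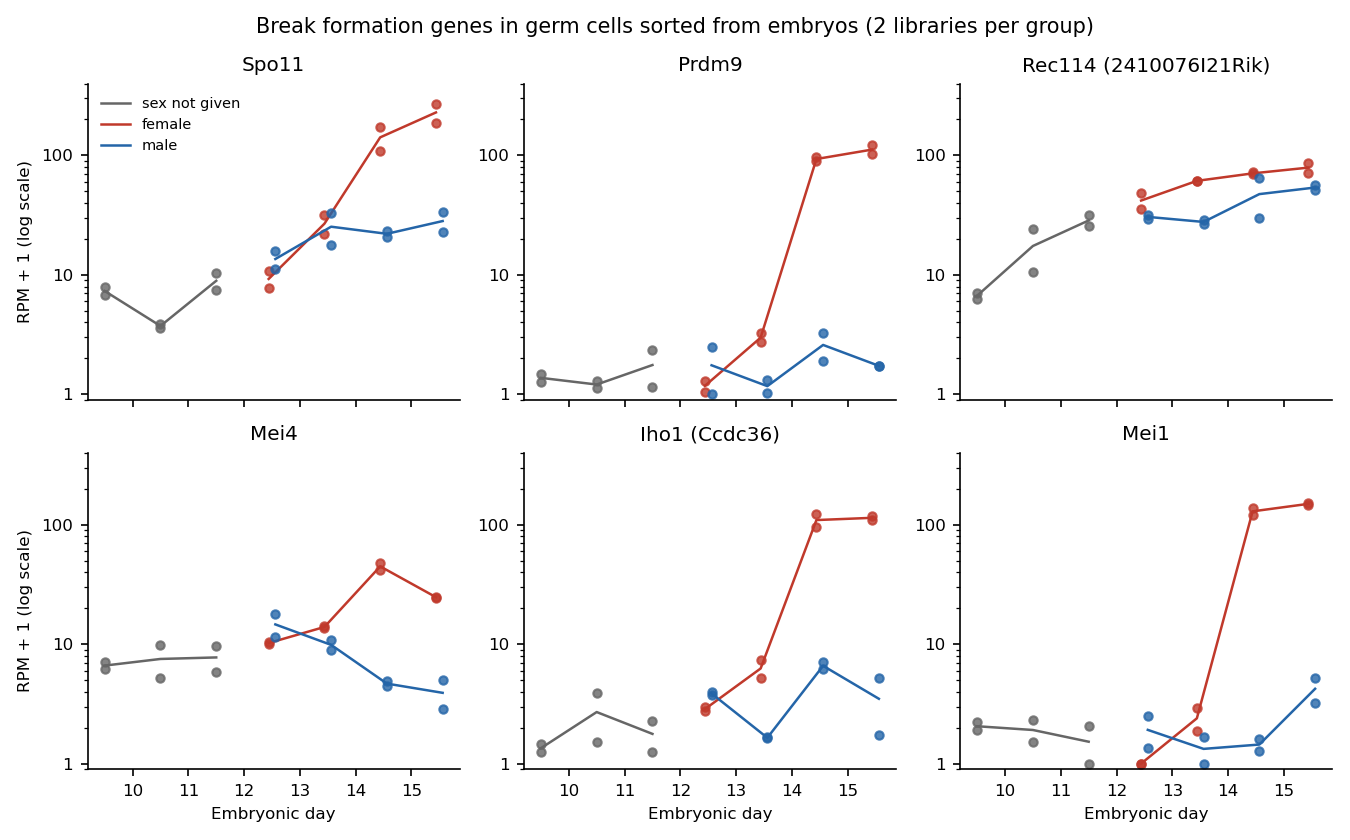
Levels of the 6 genes in each embryonic library (points) and group mean (lines), as RPM + 1 on a log axis against embryonic day. Female values of Prdm9, Iho1 and Mei1 step up between E13.5 and E14.5, Spo11 is highest in females of E15.5, and the sexes are closest to each other for Rec114 at E14.5 and E15.5.

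The sexes had parted by E13.5 in 3 members. At E12.5 limma called no member (none was below an unadjusted p of 0.05 either), with 6.53% of all genes called in either direction. At E13.5 Rec114, Iho1 and Prdm9 were called higher in females, against 10.4% of all genes. The Prdm9 difference (1.36 ± 0.42, adjusted p = 0.0176) lost its call without E13.5 male replicate 1 (adjusted p = 0.123) or E13.5 female replicate 2 (adjusted p = 0.105). At E15.5 the same 5 members as at E14.5 were called higher, against 23.7% of all genes, and Rec114 differed by 0.55 (95% interval -0.08 to 1.18).

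The steps within females placed most of the rise at E14.5. Between E11.5 and E12.5 limma called no member and none was below an unadjusted p of 0.05, with 8.48% of all genes called in either direction. Between E12.5 and E13.5, 2 were called, Spo11 (1.53 ± 0.32, adjusted p = 0.0036) and Prdm9 (1.34 ± 0.42, adjusted p = 0.0405), with 4.73% of all genes called higher. Prdm9 lost that call under 8 of 10 alternatives, among them leaving out any 1 of the 4 libraries. Spo11 lost it without E12.5 female replicate 2 (adjusted p = 0.0572) or E13.5 female replicate 1 (adjusted p = 0.061). From E13.5 to E14.5 all but Rec114 rose, against 16.5% of all genes. In that step the sum of 8 fibroblast markers went from 2.24 to 3.75 RPM to 29.7 to 40.8 RPM, and 5 of 7 germ cell markers were lower (sums of 4904 to 5230 and then 2732 to 3203 RPM), whose part was not tested. From E14.5 to E15.5 no member was called in limma, against 4.91% in either direction, with Spo11 and Mei4 below an unadjusted p of 0.05. By E15.5 all 6 were above E11.5 in females (28.1% of all genes higher), and Spo11 and Mei1 were in males (28.6% of all genes higher). The male Mei1 values were 2.22 and 4.23 RPM, and its call was lost without E11.5 replicate 2 (adjusted p = 0.0849) or E15.5 male replicate 2 (adjusted p = 0.056).

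Other genes of the pathway, from lists written for the purpose, were read in the same E14.5 comparison. Of 11 break regulators and axis genes, 10 were higher in females and none lower, with a median of 2.90. They included Gm960, which encodes the SPO11 partner TOPOVIBL, at 22.9 ± 0.874 against 2.21 ± 0.29 RPM (SD, n = 2), the cohesin subunit Smc1b at a log2 fold change of 4.68, Rec8 at 3.66 and the axis protein gene Sycp3 at 3.32. Trip13, an ATPase that removes HORMADs from the axis, was not called (-0.15). Gm960 reached the filter only through female E14.5 and E15.5 cells, so the counts of this list describe its genes and support nothing further. Of 7 readers and partners of PRDM9, 3 were higher (Hells 2.55, Zcwpw2 2.28, Zcwpw1 2.00) and Ehmt2, a histone H3K9 methyltransferase, was lower (-2.97). Of 17 genes that process breaks or exchange strands, 13 were higher, led by Meiob (listed as 4930528F23Rik, 6.20), Rad51ap2 (5.23) and the strand-exchange recombinase Dmc1 (4.90), while Mnd1, a DMC1 cofactor, was lower (-1.71). Of 4 genes of meiotic entry, 3 were higher, Stra8 (6.44), the RNA helicase gene Ythdc2 (2.81) and 4930430F08Rik (1.01), which was listed in error for Meioc. Meioc itself, listed as Gm1564 and looked up after these values were seen, was higher too (6.14).

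Markers of other cells differed between these libraries. The summed level of 12 gonadal somatic markers was 23.8 to 24.1 RPM in E14.5 females, with Sox9, Amh, Cyp11a1, Cyp17a1 and Dhh at 0, and 49.7 to 76.8 RPM in males. The sum of 8 fibroblast markers was 29.7 to 40.8 RPM in females and 58 to 130 RPM in males. The sum of 8 blood and endothelial markers was 27.7 to 53.7 RPM in females and 23 to 101 RPM in males. The part of these cells in the differences was not tested.

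In culture, the condition RB raised all 6 genes over CT by day 9, whereas RA raised 2 of them, Rec114 and Iho1. In RB against CT, 24.6% of all 11873 genes tested were called higher, in RA against CT 13.3%, and in RB against RA, where all but Rec114 were called higher, 13.1%. In this line Mei1 and Prdm9 reached the filter only through RB cells of days 7 and 9, so these counts again describe the genes without supporting more. The median log2 fold change of the 6 genes in RB against CT was 3.78, beside 0.19 over all genes. With Mei1 in CT set to the floor of 3 reads (below), that median was 3.32. In RA against CT the median was 0.85 beside 0.20.

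Spo11 measured 48.8 and 66.3 RPM in RB at day 9, 7.07 and 10 RPM in CT and 7.25 and 5.47 RPM in RA. The RB libraries stood above all others (2.62 ± 0.36 over CT, adjusted p = 1.98e-06, and 2.99 ± 0.36 over RA, adjusted p = 7.67e-07), and RA overlapped CT, with a difference of -0.37 and a 95% interval from -1.12 to 0.38. Prdm9 measured 53.6 and 51.1 RPM in RB, 0.945 and 1.64 RPM in RA, and 0.0497 and 0 RPM in CT. RA was above CT without passing the test (1.15 ± 0.44, adjusted p = 0.0544), and RB was above RA by 4.56 ± 0.44 (adjusted p = 2.73e-08). The RA mean of Prdm9 was 2.47% of the RB mean.

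Mei1 was at 0 in both CT libraries and at 0.315 and 0 RPM in RA, while RB measured 35.3 and 26.8 RPM. The RB mean was 32 times the higher floor of 3 reads in the CT libraries (0.97 RPM). That floor is no upper limit, since the 95% counting interval of CT reached 1.19 RPM. The fit, which took CT as 0, gave 4.99 ± 0.49 (adjusted p = 1.28e-08 in limma). Mei4 was at 19.9 and 27.9 RPM in RB, 5.46 and 1.94 in CT, and 5.36 and 5.47 in RA. RB stood above both (2.49 ± 0.41 over CT, adjusted p = 1.87e-05, and 1.94 ± 0.41 over RA, adjusted p = 0.00055), and RA less CT was 0.56, with a 95% interval from -0.29 to 1.404. Iho1 fell into 3 levels that did not overlap: 1.29 and 0.97 RPM in CT, 8.51 and 7.11 in RA, and 60.8 and 67.9 in RB. Its RA step was 2.05 ± 0.40 (adjusted p = 0.000567), and the further step to RB was 2.89 ± 0.40 (adjusted p = 4.45e-06).

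Rec114 was the one member for which RA and RB lay at like levels. It measured 41.5 and 24.9 RPM in CT, 87.9 and 77.4 RPM in RA, and 79.4 and 71.4 RPM in RB. RB and RA overlapped, and their difference of -0.13 had a 95% interval from -0.72 to 0.46. Both were above CT (RA 1.33 ± 0.28, adjusted p = 0.00123, and RB 1.202 ± 0.28, adjusted p = 0.000987). Without CT day 9 replicate 2 these fell below the 2-fold threshold, to 0.98 (adjusted p = 0.0462) and 0.85 (adjusted p = 0.0411), and the RB value also did under median scaling (0.88) and quantile scaling (0.94). Nptn measured 65.9 and 63.1 RPM in CT, 93.6 and 108 in RA, and 59.6 and 64.1 in RB. Rec114 had also risen before the factors were given, from 7.92 and 3.26 RPM at day 0 to 26.6 and 20.6 RPM at day 3 (1.99 ± 0.28, adjusted p = 5.42e-05), as the only member called in a step where 3.03% of all genes were called higher. Nptn measured 50.4 and 41.3 RPM at day 0 and 45.7 and 41.3 RPM at day 3. The sum of 8 fibroblast and feeder markers was 2.54 to 2.64 RPM at day 0 and 50.3 to 62.3 RPM at day 3, with Lum, Thy1 and Postn at 0 on both days, and its part was not tested. From day 3 to day 9 in CT limma called no member, against 2.25% of all genes in either direction, and Spo11 (1.27 ± 0.36, adjusted p = 0.053) was the one below an unadjusted p of 0.05. With eBayes without trend 1 member was called higher there.

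**Figure D2:**
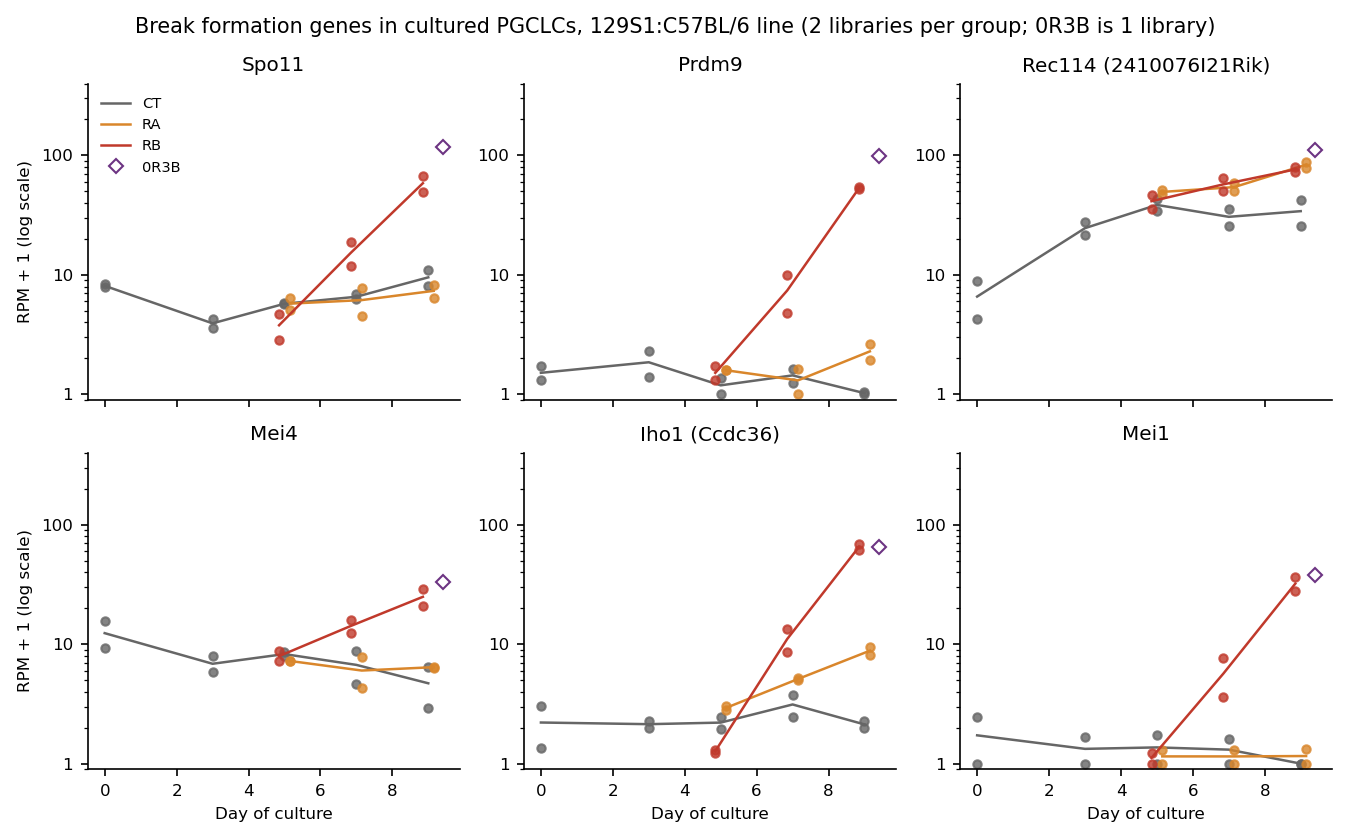
Levels of the 6 genes in each library of the 129S1:C57BL/6 line (points; diamonds are the single 0R3B library) and group means (lines), as RPM + 1 on a log axis against day of culture. RB departs from CT and RA between days 5 and 9 for every gene but Rec114, for which RA and RB run together.

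The rise in RB was spread over days 5 to 9. At day 5 limma called no member in RB against CT, RA against CT or RB against RA, where 0.674%, 0.244% and 0.0421% of all genes were called in either direction. Iho1 at day 5 measured 0.233 and 0.308 RPM in RB, both under the floor of 3 reads (0.7 and 0.925 RPM), and 1.79 and 2.06 RPM in RA. RB was below RA, the one difference of a member at that day with an unadjusted p below 0.05 (-1.203 ± 0.40, adjusted p = 1). At day 7, 5 members were called in RB against CT (15.7% of all genes higher), all but Rec114 (0.91 ± 0.28, adjusted p = 0.0166, under 2-fold). Prdm9 was then at 3.81 and 9.01 RPM and Iho1 at 7.59 and 12.49 RPM. With median scaling 3 members were called and with quantile scaling 2. Of 10 alternatives, the Mei4 call was kept under 3, that of Spo11 under 6, that of Mei1 under 8 and those of Prdm9 and Iho1 under all 10. Without RB day 7 replicate 2, the higher library for 5 of the 6 genes, the count was 3. In RA against CT limma called none at day 7 (5.21% of all genes in either direction), with Rec114 (0.84 ± 0.28, adjusted p = 0.0752) below an unadjusted p of 0.05. In RB against RA 3 were called (Spo11, Mei1 and Prdm9, against 3.58% of all genes), and none of these was called without RB day 7 replicate 2.

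From day 7 to day 9 in RB, Prdm9 rose by 2.94 ± 0.44, Iho1 by 2.60 ± 0.40, Mei1 by 2.59 ± 0.49 and Spo11 by 1.95 ± 0.36 (adjusted p from 2.37e-05 to 0.000348), against 9.44% of all genes. Mei4 (0.80, 95% interval -0.05 to 1.65) and Rec114 (0.42, -0.16 to 1.01) were not called in that step. From day 5 to day 7 the same 4 genes were called, against 13.4% of all genes, with changes from 2.02 to 3.08. The Mei1 call of that step was lost without RB day 7 replicate 2 (adjusted p = 0.0527), and that from day 7 to day 9 with a pseudocount of 0.1 (adjusted p = 0.175). The RB effect over CT was larger at day 9 than at day 5 for all 6 genes (1.10 to 5.73, with 20.2% of all genes called that way), and the RB effect over RA for all but Rec114 (9.32%). The Rec114 value in the first of these (1.10, adjusted p = 0.0338) lost its call under 10 of 14 alternatives, and that of Mei4 in the second (1.81, adjusted p = 0.0262) under 8 of 14.

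Other genes of the pathway were read at day 9 in the same way. Of 10 break regulators and axis genes tested, 9 were higher in RB than CT (median 3.72), led by Sycp2 (8.41), Sycp3 (6.64) and Smc1b (5.02), and 5 in RA than CT (median 1.107). Rec8 was among the latter, at 178 ± 31.1 RPM in RA and 216 ± 1.35 in RB (SD, n = 2), with no call between RA and RB. Gm960 was at 16.9 ± 6.14 RPM in RB and 1.04 ± 0.311 in RA. It reached the filter only through RB cells of day 9, so the counts of this list support nothing further. Of 7 PRDM9 readers and partners, 4 were higher and 1 lower in RB than CT. Zcwpw2 (4.61), Zcwpw1 (3.39) and Hells (1.64) led, Cxxc1 was at 1.03, and Cdyl, a chromodomain protein gene, was lower (-1.49). In RA none of these was higher and Cdyl was lower (-1.28). Of 17 break processing genes, 10 were higher in RB, led by Rad51ap2 (7.52), Meiob (5.76) and Tex15 (5.49), and 4 in RA (Dmc1 1.91, Rad51ap2 1.59, Rbbp8 1.02, Hsf2bp 1.01). Of 4 genes in the meiotic entry list, Stra8, Dazl and Ythdc2 were higher in each of RB and RA. Meioc, listed as Gm1564 and outside that list, was at 389 ± 9.33 RPM in RB, 40.1 ± 9.04 in RA and 1.45 ± 0.234 in CT (SD, n = 2). Stra8 was at 980 and 1209 RPM in RA and 1235 and 1659 RPM in RB, with a difference of 0.40 ± 0.30 (adjusted p = 0.3).

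Fibroblast markers, 8 in all, summed to 38.5 to 97.1 RPM in CT at day 9, 108 to 188 in RA and 18.2 to 49.6 in RB. Gonadal somatic markers, 12 in all, summed to 22.1 to 27.6 RPM in CT, 33.7 to 36.6 in RA and 43 to 70.7 in RB, with Amh and Nr5a1 at 0 in each. Blood and endothelial markers summed to at most 3.31 RPM. The part of feeder or other cells in the differences was not tested.

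In the knockout experiment, Stra8 itself measured 1813 and 1717 RPM in wild-type cells at day 9 and 105, 77.9, 122 and 483 RPM in the knockout, where the highest value was of line SK3 (483 RPM). The labels do not say whether the counted 3′ end lies in the deleted part, so this level does not by itself check the genotype. At day 9 the knockout was lower in 5 of the 6 genes, while 8.35% of all 12206 genes tested were called lower and 10.8% higher. Prdm9 reached the filter in this experiment only through wild-type cells of days 7 and 9, and Mei1 only through those and knockout cells of day 9, so these counts describe the members and support nothing further. The median log2 fold change of the 6 was -1.83, and that of all genes was 0.09.

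Prdm9 measured 73.9 and 71.2 RPM in wild type at day 9 and 3.24, 2.62, 3.83 and 2.32 RPM in the knockout, so the knockout held 4.14% of the wild-type mean (-4.21 ± 0.40, adjusted p = 8.95e-10). Iho1 measured 73 and 144 RPM in wild type and 3.89, 11.1, 5.74 and 9.27 RPM in the knockout (6.91% of the wild-type mean, -3.69 ± 0.49, adjusted p = 4.02e-07). For both genes all 4 knockout libraries lay below both wild-type ones, the SK3 library with its higher Stra8 included.

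Spo11, Mei1 and Mei4 kept more of their level. Spo11 measured 63 and 67.9 RPM in wild type and 26.9, 12.4, 12 and 10.8 RPM in the knockout, whose highest library was of SK1 (23.7% of the wild-type mean, -2.10 ± 0.37, adjusted p = 3.62e-05). Mei1 measured 37.8 and 30.9 RPM in wild type and 12.3, 11.1, 9.57 and 12.4 RPM in the knockout (33% of the wild-type mean, -1.52 ± 0.39, adjusted p = 0.00269). The knockout libraries were close to one another and below both wild-type ones, but with a pseudocount of 0.1 the adjusted p was 0.206. Mei4 measured 30.2 and 31.8 RPM in wild type and 6.16, 17.7, 13.4 and 6.18 RPM in the knockout (35% of the wild-type mean, -1.56 ± 0.45, adjusted p = 0.0061). This call was lost without wild-type day 9 replicate 2 (adjusted p = 0.0577).

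Rec114 was at 79.7 and 88.5 RPM in wild type at day 9 and at 76.6, 64.1, 75.1 and 70.3 RPM in the knockout. The knockout libraries lay below the wild-type ones by a small amount, -0.23 with a 95% interval from -0.69 to 0.22 (adjusted p = 0.433). Nptn measured 62.1 and 44.5 RPM in wild type and 62.3, 54.3, 55 and 41 RPM in the knockout. Rec114 had risen from day 3 in both genotypes, wild type by 2.51 ± 0.26 (adjusted p = 6.83e-10) and knockout by 2.07 ± 0.18 (adjusted p = 1.94e-11). Nptn measured 48.5 and 38.1 RPM in wild type at day 3, and 45.5, 56.9, 43 and 39.4 RPM in the knockout.

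**Figure D3:**
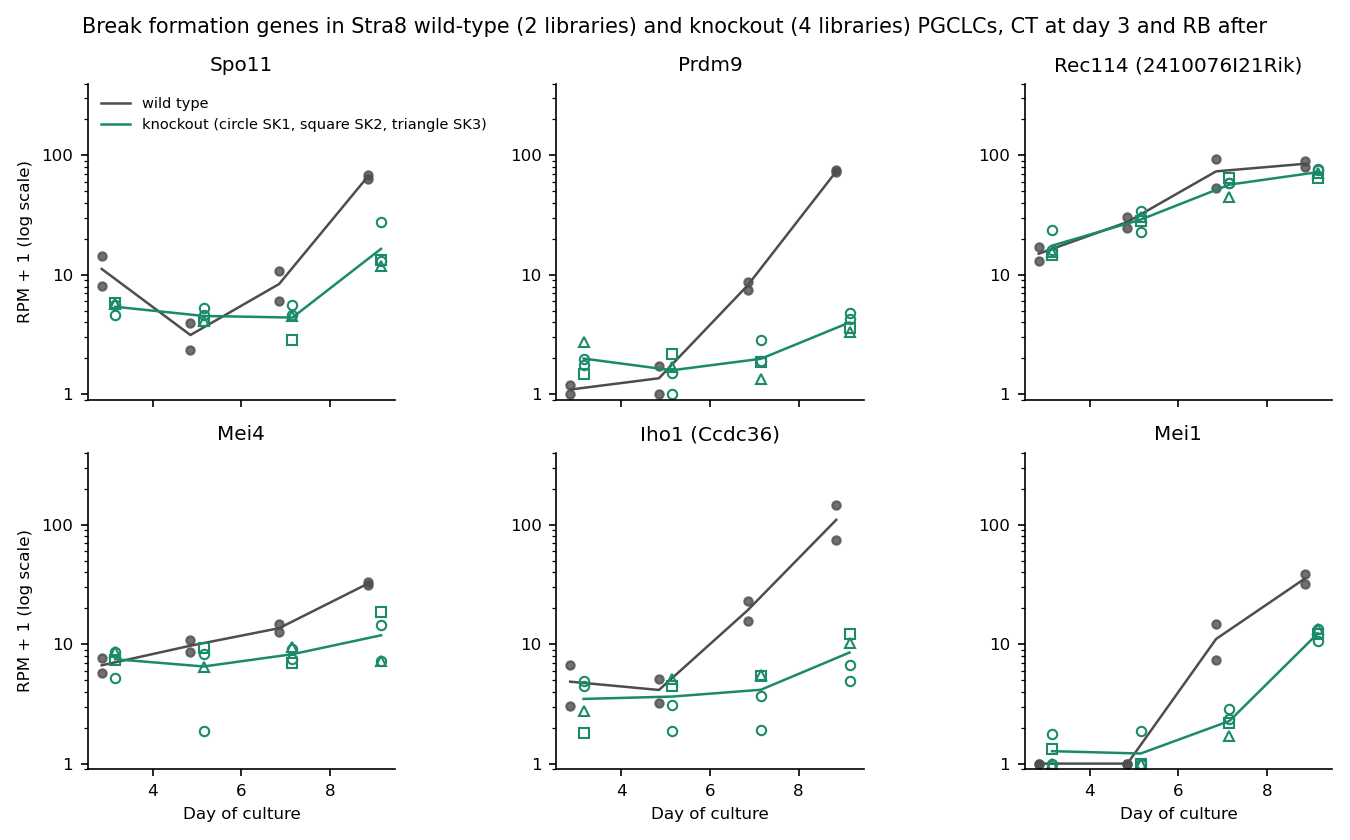
Levels of the 6 genes in each wild-type and Stra8-/- library (symbols by knockout line) with group means (lines), as RPM + 1 on a log axis against day of culture. At day 9 the knockout mean is below that of wild type by the most for Prdm9 and Iho1 and by the least for Rec114, whose difference is not called.

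The genotypes parted between days 5 and 7. At day 3 and at day 5 limma called no member, where 1 and 2 of all genes were called in either direction (0.00819% and 0.0164%). By unadjusted p, Spo11 (-0.997, 95% interval -1.75 to -0.24) and Prdm9 (0.83, 0.01 to 1.65) at day 3 were the 2 members below 0.05 at these days. At day 7, Iho1 (-2.30 ± 0.49, adjusted p = 0.00125), Mei1 (-2.22 ± 0.39, adjusted p = 0.000169) and Prdm9 (-2.09 ± 0.40, adjusted p = 0.000433) were lower in the knockout, against 5.57% of all genes. Spo11 was at 5.07 and 9.72 RPM in wild type and 4.63, 1.87, 3.59 and 3.51 RPM in the knockout, which did not pass (adjusted p = 0.0834).

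Mei1 in the knockout reached by day 9 the level that wild type had at day 7. The knockout libraries were at 1.85, 1.19, 1.35 and 0.701 RPM at day 7, when wild type was at 13.8 and 6.32 RPM, and at 9.57 to 12.4 RPM at day 9, within the range of wild type at day 7. From day 3 to day 9 it rose in the knockout by 3.31 ± 0.32 (adjusted p = 1.76e-10). In all, 5 of the 6 genes rose in the knockout over that time (25.6% of all genes higher), with Spo11 at 1.52, Iho1 at 1.31 and Prdm9 at 1.03, and all 6 in wild type (27.8%). With median scaling 3 members were called in the knockout and with quantile scaling 2. Mei1 was at 0 in both wild-type libraries of day 3. Its wild-type mean at day 9 was 24.3 times the higher floor of 3 reads in those libraries (1.41 RPM), which is no upper limit of their level. Between the same days the sum of 8 fibroblast and feeder markers went from 144 to 158 RPM to 11.2 to 23.5 RPM in wild type and from 120 to 174 RPM to 12.4 to 23 RPM in the knockout. The part of these cells was not tested. The Iho1 values of knockout days 3 and 9 overlapped, and the Prdm9 call was lost under 8 of 15 alternatives and turned to -0.15 with quantile scaling. Mei4 in the knockout changed by 0.56, with a 95% interval from -0.18 to 1.31. The effect of genotype itself changed from day 3 to day 9 for 4 genes, Prdm9 (-5.04, adjusted p = 1.1e-07), Iho1 (-3.21, adjusted p = 0.000972), Mei1 (-1.82, adjusted p = 0.0171) and Mei4 (-1.72, adjusted p = 0.0483), against 6.2% of all genes. The Mei4 value lost its call under 12 of 19 alternatives and the Mei1 value under 4 of 19. For Spo11 it was -1.10 (adjusted p = 0.134).

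The pathway lists in the knockout at day 9 held 8 lower genes and none higher among 10 break regulators and axis genes (median -2.12), led by Gm960 (-3.66), Sycp3 (-2.93) and Sycp2 (-2.56). Gm960 fell from 24 ± 2.84 RPM (SD, n = 2) to 1.03 ± 0.531 RPM (SD, n = 4). It reached the filter only through wild-type cells of day 9, so the counts of this list support nothing further. Rec8 (0.69) and Trip13 (0.70) were above wild type without reaching 2-fold. Of 7 PRDM9 readers and partners, Zcwpw2 (-4.12) and Zcwpw1 (-1.76) were lower. Of 17 break processing genes, 7 were lower, led by Rad51ap2 (-6.90), Meiob (-3.56) and Dmc1 (-3.33), and none higher. Of the 4 genes in the entry list, Stra8 (-3.56), Ythdc2 (-1.40) and 4930430F08Rik (-1.32, listed in error for Meioc) were lower. Dazl, a germ cell RNA-binding protein gene, was not called (-0.53). Meioc itself, listed as Gm1564 and outside that list, was at 133 ± 41.6 RPM in the knockout (SD, n = 4) and 301 ± 47.4 RPM in wild type (SD, n = 2). Among 7 germ cell markers 4 were higher in the knockout and none lower. Their sums went the other way, at 2476 to 2589 RPM in the knockout and 2750 to 3133 RPM in wild type. Fibroblast marker sums were 12.4 to 23 RPM in the knockout and 11.2 to 23.5 RPM in wild type, and gonadal somatic sums 30.9 to 43.1 and 21.9 to 33.4 RPM. Their part was not tested.

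**Figure D4:**
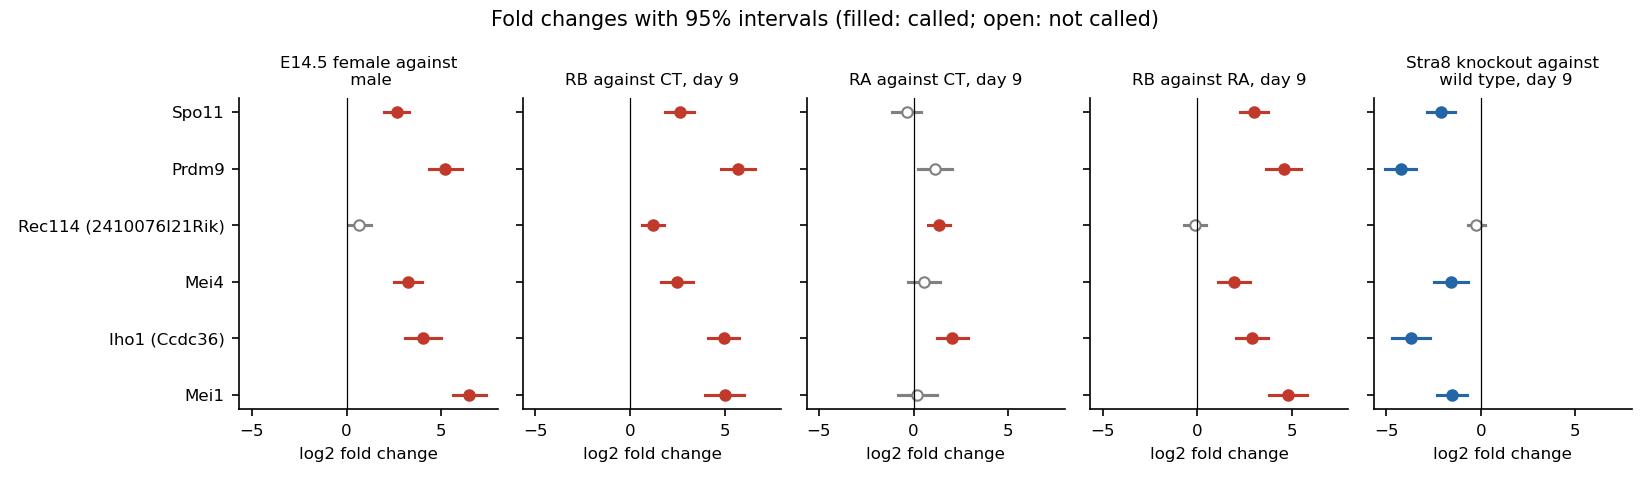
Log2 fold changes of the 6 genes with 95% intervals in 5 comparisons (filled points are called, open points are not). Rec114 is the open point at E14.5, in RB against RA and in the knockout, while in RA against CT Rec114 and Iho1 are the filled ones.

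Single libraries have no replicate check and were not tested. The 0R3B library of day 9 measured 118 RPM of Spo11, 98 of Prdm9, 111 of Rec114, 32.4 of Mei4, 63.8 of Iho1 and 36.8 of Mei1. For Iho1 this lay between the 2 RB libraries of that line and day, and for the other 5 genes it was above both. Its Stra8 was at 2711 RPM, the highest of all 37 groups. In C57BL/6 cells, the library named c7RB had 3.62 RPM of Spo11 at day 9, 0.738 of Prdm9, 63.5 of Rec114, 4.1 of Mei4, 3.14 of Iho1 and 2.41 of Mei1. The c7CT library had 2.17, 0, 28.5, 3.72, 4.03 and 0 RPM of the same genes. Rec114 and Mei1 were thus the members whose counting intervals in the former lay above those of the latter. The titles do not spell out when RB was given to these cells, so c7RB is not set against RB in the other lines. Nptn was at 50.5 RPM in c7RB and 56.8 RPM in c7CT, and Stra8 at 27.5 and 24.5 RPM.

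Ordered by group mean, the female E15.5 cells came first for Spo11 (228 ± 58.3 RPM, SD, n = 2), Prdm9 (111 ± 13), Iho1 (113 ± 7.09) and Mei1 (148 ± 4.17), and the female E14.5 cells for Mei4 (43.7 ± 4.78). For Iho1 the top group overlapped the next, wild-type RB at day 9 (109 ± 50.3), and that one overlapped female E14.5 (108 ± 19). For Mei1 the females of E14.5 and E15.5 were apart from every culture group, and 0R3B, wild-type RB and 129S1:C57BL/6 RB at day 9, which overlapped one another, followed at 36.8, 34.3 and 31.1 RPM. The RB mean of that line was 24.3% of the female E14.5 mean for Mei1, 40.9% for Spo11, 54.6% for Mei4, 56.7% for Prdm9, 59.4% for Iho1 and 108% for Rec114. These groups differ in strain, reporter and source, which cannot be told apart from culture. For Rec114 the top place was that of 0R3B (111 RPM), and the following 7 groups, from wild-type RB (84.1) through female E14.5, each overlapped the next.

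Across the 37 group means of log2(RPM + 1), Pearson correlations between members ran from 0.28, for Mei4 with Rec114, to 0.96, for Mei1 with Prdm9. Prdm9 with Iho1 reached 0.94 and Rec114 with any other member at most 0.63. These points share libraries, depth and stages and are a description. Likeness was ranked among 9450 genes that reached 20 RPM in a group. Genes named only by Gm or LOC and a number, Gm960 and Gm1564 included, were left out of this ranking. The most like Prdm9 were Terb1 (listed as Ccdc79, r = 0.98), BC051142 and Ddb2 (both 0.98). The most like Mei1 were H2-Ab1, a class II histocompatibility gene (0.97), Tppp (0.96) and Majin (listed as 1700123I01Rik, 0.96). Only 5 of the ranked genes were more like Mei1 than Prdm9 was. The most like Iho1 were Ints8, Ddb2 and Spdya (0.96 each). Spo11 was most like Rnf146 (0.95), 2310061I04Rik (0.94) and Lrrc42 (0.94), Mei4 most like Rasa1 (0.90), Cdk11b (0.88) and Srbd1 (0.88), and Rec114 most like Dazl (0.92), Heca (0.91) and Dmxl2 (0.91).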

How the data were processed

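RNA was read as 3′-end libraries amplified from 1 ng. The deposited signal is named RPM in the title of the authors' table, gene rows sum to about the same total in each library, and spike-in rows stand on the same scale on top of it. Spike-in sums were uneven. In wild-type and Stra8-/- cells they were 3.232 to 49.86 RPM in some libraries of each genotype and 26440 to 48450 RPM in the others. In c7RB the sum was 9.17 RPM. The part of this split was not tested. The submitters' processing notes name cutadapt 1.11, TopHat 1.4.1, Bowtie 1.0.1, Cufflinks 2.2.0 and mm10. The 96 spike-in rows were left out, and 2777 values below 0.001 RPM were set to 0. A library's commonest value above 0 was taken as 1 read, which put the depth at 1.08 to 15.62 M reads (median 3.124 M). Of low values, 80.69% to 93.22% were whole reads within 0.05 reads, too few for a count test. The lowest share was that of the 0R3B library, and every other library had 87.7% or more.

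Genes with 5 RPM in at least 2 libraries of an experiment were tested on log2(RPM + 1), with 1 mean per group, in limma 3.58.1 (R 4.3.3, eBayes with trend), after tests on simulated data. Genes tested were 12567 (embryo, 11 residual degrees of freedom), 11873 (129S1:C57BL/6 cells, 11) and 12206 (wild-type and Stra8-/- cells, 16). Adjusted p-values are Benjamini-Hochberg over all genes tested, per comparison. Groups follow the sample titles. Counting intervals are exact Poisson at 95%. Named are the members, the 3 genes most like each, and in each list up to 3 called genes per direction with the largest change, plus those needed to explain a count. Members and lists were chosen with earlier results of these data known. Alternatives were another pseudocount, no filter, median or quantile scaling, eBayes without trend, a replicate block, SK1 libraries averaged, and each library left out. Promoters and positions came from RefSeq and GENCODE vM21.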

Additional observations from a re-analysis of the deposited data

Results flagged for a closer look

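Spo11 in knockout cells at day 9 had 1 library, the first of line SK1 (26.9 RPM), far above the other 3. The spike-in rows of that library summed to 32010 RPM, and those of the other 3 to 10.81 to 20.09 RPM. The part of this difference was not tested. At day 3 the second SK1 library was low in Spo11 (3.585 RPM), and at day 5 it held 0.86 RPM of Mei1, where the other 3 held 0. That value is 1 read and lies under the floor of 3 reads in that library (2.58 RPM), so it is not taken as a presence. These 3 came from 24 sets of 4 knockout libraries (6 genes in 4 groups). For normally distributed values the rule would flag about 1 set in 20. A set with 3 libraries at 0, as for Mei1 at day 5, is flagged whatever the value of the other library, so that rate does not hold for it. Sets of the same group also share libraries.

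The difference between the sexes changed from E12.5 to E15.5, by the test of the difference itself, for Spo11 (3.574), Mei1 (6.053), Mei4 (3.197), Prdm9 (6.44) and Iho1 (listed as Ccdc36, 5.673). The difference of RB from CT changed from day 5 to day 9 for Spo11 (3.262), Mei1 (5.237), Mei4 (2.557), Rec114 (listed as 2410076I21Rik, 1.103), Prdm9 (5.354) and Iho1 (5.727). That of RB from RA changed for Spo11 (3.625), Mei1 (4.831), Mei4 (1.81), Prdm9 (4.644) and Iho1 (4.096). That of knockout from wild type changed from day 3 to day 9 for Mei1 (-1.822), Mei4 (-1.718), Prdm9 (-5.043) and Iho1 (-3.215). In order, 22.2%, 20.2%, 9.32% and 6.2% of all genes were called the same way. The Rec114 call of RB from CT was kept under 4 of 14 alternatives, and the Mei4 call of RB from RA under 6 of 14. In the knockout contrast, a pseudocount of 0.1 took the limma call from Mei1 (adjusted p = 0.137) and Mei4 (adjusted p = 0.12).

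Outside the comparisons, the single 0R3B library was above the counting intervals of CT at day 9 for Spo11 (117.6 RPM), Mei1 (36.84), Mei4 (32.37), Rec114 (110.9), Prdm9 (98.04) and Iho1 (63.82). Its share of whole-read values was the lowest of all libraries (80.69%), so its own counting intervals are less sure. The C57BL/6 c7RB library was above that of c7CT for Mei1 (2.414 RPM) and Rec114 (63.49).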

How the results depend on the processing

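Of 738 recomputed counts of members called, 709 stayed within 1.5 times the main count. The number called higher between female E12.5 and E13.5 (2) was 1 with no filter, median centring or quantile normalization, and 0 to 1 when single libraries were left out. For male E15.5 against E11.5 the count higher (2) was 1 with quantile normalization and 1 to 3 with single libraries left out, and the count lower (0) was 1 with a pseudocount of 0.1, median centring or quantile normalization and 0 to 1 with libraries left out. For CT day 9 against day 3 (0) it was 1 without trend. For RB against CT at day 7 (5) it was 3 with median centring, 2 with quantile normalization and 3 to 5 with libraries left out. For RA against CT at day 9 (2) it was 1 to 2 with libraries left out, and for RB against RA at day 7 (3) it was 1 with a pseudocount of 0.1 and 0 to 3 with libraries left out. For the knockout at day 9 against day 3 (5) it was 3 with median centring and 2 with quantile normalization, where Prdm9 reversed to -0.1453 (adjusted p = 0.715). For the change of genotype effect (4 lower) it was 2 with a pseudocount of 0.1 and 2 to 4 with libraries left out. The cause was not tested. Of 1125 recomputed fold changes of called members, 1036 kept call and direction, 88 lost the call and 1 reversed. Of 369 counts over all genes, 46 moved over 1.5 times. With a pseudocount of 0.1 these were RB against RA at day 7 (549 to 319) and the knockout at day 3 (1 to 5). With no filter they were CT day 9 against day 3 (267 to 159), at day 5 RB against CT (80 to 37), RA against CT (29 to 19) and RB against RA (5 to 2), and the knockout at day 5 (2 to 6). With SK1 averaged the knockout at day 5 gave 6 and at day 3 gave 0, as day 3 also did with quantile normalization or without trend. The rest came from leaving out 1 library, down to 108 for RB against RA at day 7 and 1118 for RB day 7 against day 5 (1905), both without RB day 7 replicate 2.

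The replicate block was fitted although libraries share only a number: the pairing correlations ran from -0.0284 to 0.239, and 9 of 29 were over 0.1, all of them among the 13 of the 129S1:C57BL/6 line. With the replicate block, CT day 9 against day 3 had 1 member called higher in place of 0 (399 genes called in place of 267), and no other count of members moved over 1.5 times. Median log2 fold changes over all genes differed from 0 by over 0.1 in several comparisons, 0.19 for RB against CT and 0.20 for RA against CT at day 9. The depth limits Mei1 and Prdm9, which were at 0 in 27 and 10 libraries.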
